A study of Mus musculus with 12 samples.

Results

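Chromatin accessibility in the mouse dentate gyrus was compared between the groups E1 and E0, using 8 of the 12 libraries of the series, the 4 libraries titled E1 and the 4 titled E0. All were made by ATAC-seq, in which a transposase cuts and tags open DNA. The labels describe each as the microdissected dentate gyrus of 1 C57BL/6 mouse aged 8 weeks, and no genotype, agent or time is given. The labels leave E0 and E1 undefined. By general knowledge of the publication, E0 mice were taken before and E1 mice 1 h after electroconvulsive stimulation, a seizure-like stimulus that fires neurons across the brain at once. The values are deposited lists of peaks in the mm9 build. The 8 lists, limited to chromosomes 1 to 19 and X, held 522911 peaks, which merged into 152035 regions wherever peaks shared at least 1 bp. The whole series merged into 170710.

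The dentate gyrus is the entry station of the hippocampus, and most of its neurons are densely packed granule cells that fire sparsely. When neurons fire, calcium entry switches on immediate early genes, among them transcription factors of the Fos, Jun and Egr families, and these act on enhancers and promoters of further genes. Enhancers are short stretches of DNA, often far from any gene, that become accessible when factors bind there. Strongly transcribed genes can also become accessible along their bodies. Tissue of this kind is a mixture of neurons, glia and vessel cells, so that a change within cells and a change in the mix of cells cannot be told apart. No gene annotation of mm9 was used here, so regions are given by position, the tissue was not checked against marker genes, and whether a region lies in a gene, an exon, an intron or a promoter is not stated.

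The lists differed in length within each group as well as between groups. The E0 lists held 61462, 77130, 36861 and 45005 peaks in replicates 1 to 4, and the E1 lists held 84776, 83034, 70491 and 64152. Every E1 list was longer than 3 of the 4 E0 lists, and E0 replicate 2 was longer than E1 replicates 3 and 4. In both groups, replicates 1 and 2 also had wider peaks than replicates 3 and 4. The median peak width was 372, 400, 294 and 319 bp in E0 replicates 1 to 4 and 369, 422, 319 and 295 bp in E1 replicates 1 to 4. The mean of these medians was 346 ± 48.4 bp in E0 and 351 ± 56.3 bp in E1 (SD, n = 4; exact two-sided permutation test, p = 0.943). With each list limited to its 36861 highest scores the means were 431 ± 136 and 483 ± 108 bp, a difference of 52.2 bp (exact permutation p = 0.514), so in neither form was the difference larger than the spread between libraries. Peaks inside regions found in all 8 libraries made up 30.7%, 23.7%, 53.0% and 42.6% of the E0 lists and 22.4%, 22.2%, 27.6% and 30.5% of the E1 lists (exact permutation p = 0.114). With lists of equal length these shares were 34.9%, 34.1%, 38.0% and 36.3% in E0 and 34.4%, 34.2%, 35.2% and 35.4% in E1 (exact permutation p = 0.371). An exact test of 4 against 4 libraries cannot go below 0.0286. The 6 library-level comparisons of lists as deposited thus had little room to pass an adjustment, and none did (lowest adjusted p = 0.229). That test takes no account of the replicate numbers, and no label says that equal numbers mark a pair of mice. Between libraries of the same number, the E1 list was longer in 4 of 4 pairs, by 23314, 5904, 33630 and 19147 peaks in replicates 1 to 4. With lists as deposited, covered length was also higher at E1 in 4 of 4 pairs, and the share of peaks in regions found in all 8 libraries was lower in 4 of 4. Median width was higher at E1 in 2 of 4 pairs, and the share of peaks wider than 1000 bp in 1 of 4. The part of list length in these values was not tested. The lists hold no read counts. Depth per library is therefore unknown, and a region without a peak was only not called there.

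**Figure D1:**
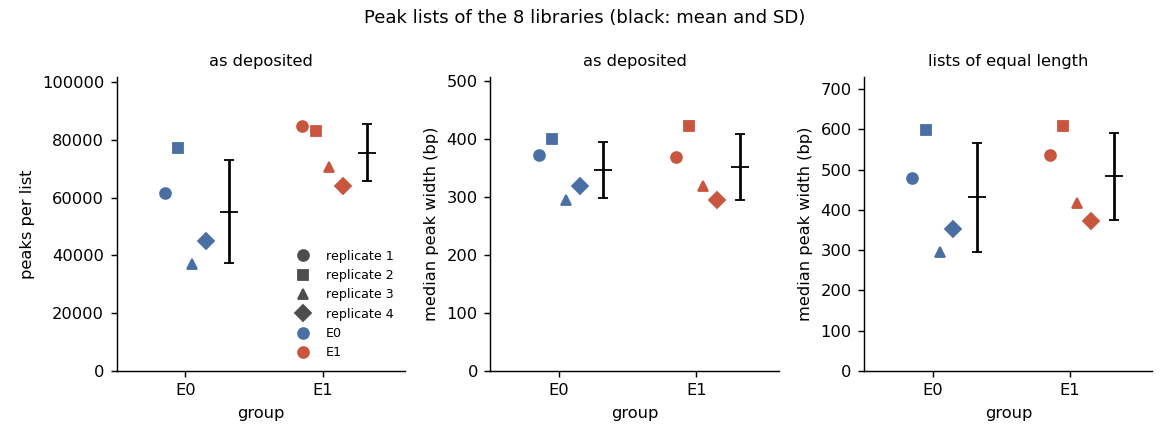
Peaks per list and median peak width in bp (y axes) for the E0 and E1 groups (x axes), with lists as deposited and with each list cut to its 36861 highest scores. Each point is a library, with its replicate number given by the marker, and the black bars give the mean and SD of 4; replicates 1 and 2 lie above replicates 3 and 4 in both groups in each panel.

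Regions that gained a peak at E1 far outnumbered regions that lost one. A region is called gained here when all 4 E1 libraries and no E0 library had a peak in it, and lost in the opposite case. There were 5643 gained regions, 3.71% of the 152035, and 315 lost regions, 0.207%. Of the 14643 regions found in exactly 4 of the 8 libraries, 38.5% were gained and 2.15% lost. Just short of the criterion lay 3376 regions with 4 E1 libraries and 1 E0 library and 6414 with 3 E1 libraries and none of E0, against 623 and 1213 in the opposite direction. For 4 libraries against 4, Fisher's exact test gives a single region no p below 0.0286. Only gained and lost regions reach that value. They are too small a share of all regions for any to stay below 0.05 after Benjamini-Hochberg adjustment, so the counts are a description.

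The lists differ in length, so the counts were repeated on lists of equal length. When the lists were trimmed to the 36861 highest-scoring peaks of each, which is the length of the shortest, 80467 regions remained, of which 3031 were gained (3.77%) and 1027 lost (1.28%). Gained regions were thus 94.7% of all gained and lost regions with lists as deposited and 74.7% with lists of equal length. Of the 5643 regions gained as deposited, 1697 were still called gained at equal length, and of the 315 lost regions, 118 were still called lost. The calls at equal length thus included many regions that the full lists did not call. Under the most demanding form, only the lists that had to hold the region were cut and the others kept their full length, which left 1698 gained (1.52% of 111605 merged regions) and 118 lost regions (0.0885% of 133300). Gained regions were more numerous under all 3 rules, but only equal length removes the difference in list length. Under the other rules the lists that had to be empty kept their full length, and most E1 lists were longer. Looser counts depend on list length more directly. As deposited, 78677 regions (51.7%) had a peak in more E1 than E0 libraries and 40909 (26.9%) in more E0 than E1 libraries. With lists of equal length these were 28799 (35.8%) and 33389 (41.5%). At equal length the looser counts thus leaned to E0, where the gained and lost counts leaned to E1. A fixed number of peaks per list bears on both kinds of count, and its part in them was not tested. A single E1 library alone had a peak in 10575 regions and a single E0 library alone in 15509.

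**Figure D2:**
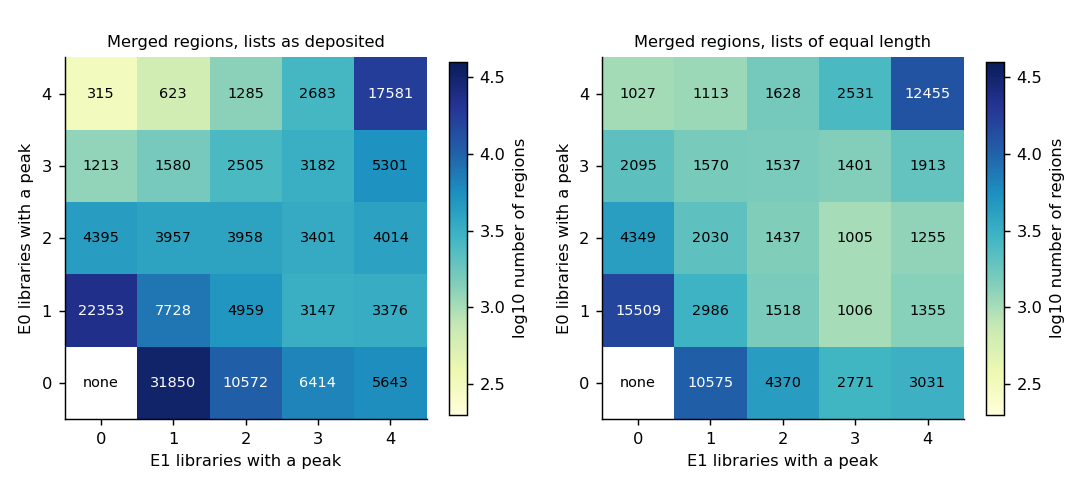
Number of merged regions by the number of E1 libraries (x axis) and E0 libraries (y axis) with a peak, with lists as deposited and with lists of equal length; colour gives the number on a log10 scale. The lower right cell holds the gained regions (5643 and 3031) and the upper left cell the lost regions (315 and 1027).

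The same comparison was made separately within the pairs of replicates that the peak widths set apart, a split that no label names. Replicates 1 and 2 alone gave 15803 regions with a peak in both E1 libraries and neither E0 library (10.4% of all regions), and 5462 in the opposite direction (3.59%). Replicates 3 and 4 alone gave 15108 (9.94%) and 1964 (1.29%). At equal list length the counts were 7350 gained (9.13%) and 5299 lost (6.59%) in replicates 1 and 2, and 6695 gained (8.32%) and 4092 lost (5.09%) in replicates 3 and 4. Gained regions were thus 74.3% and 88.5% of those called in the pairs as deposited, and 58.1% and 62.1% at equal length. The 5643 regions gained over all 8 libraries are those called in both pairs, 35.7% of the first list and 37.4% of the second. Regions gained in replicates 1 and 2 and lost in replicates 3 and 4 numbered 7, and 129 went the other way. At that length, 41.2% and 45.3% of the gained regions of the 2 pairs and 19.4% and 25.1% of the lost regions were called in both.

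The gained regions named here are the 5 whose lowest percentile within the E1 lists was highest, and they ranked among the strongest peaks of each E1 library. The authors' score per peak was used for this ranking. The first lay on chromosome 1 from 40415429 to 40416275. Its E1 scores were 750.2, 622, 498 and 530.4 in replicates 1 to 4, which placed it between percentiles 96.9 and 98.4 of those lists. No E0 library had a peak there, and all 4 libraries of the E4 group did. On chromosome 12, the region from 54854269 to 54854911 scored 629, 616, 429 and 459. It lay between percentiles 96.8 and 97.5, and 2 E4 libraries had a peak in it. On chromosome 11, the region from 12601652 to 12602455 scored 578, 600.5, 391 and 577. Each E4 library had a peak in it. Scores were 526, 671, 482 and 575 at 13495672 to 13496404 of chromosome 10. At 91962832 to 91963655 of chromosome 8 they were 646, 533, 406 and 321. Both had a peak in 3 E4 libraries. The named regions are not typical in this respect. Of all 5643 gained regions, 177 (3.14%) were present in each of the 4 E4 lists and 522 (9.25%) in none. E4 replicate 1 held 89.97% of the gained regions, and E4 replicates 2 to 4 held 25.6%, 11.9% and 18.7%. All 5 named regions were 643 to 847 bp wide and stood 35.5 to 87.5 kb from the nearest region found in all 8 libraries. They kept 4 against 0 libraries with peaks covering at least 50% of the region. A score minimum of 100 also left 4 against 0, which follows from the choice, since their E1 scores were 321 or higher.

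Among the lost regions, the one with the highest minimum percentile in the E0 lists lay on chromosome 4 from 51691875 to 51692479, with E0 scores of 198, 244, 183 and 262 in replicates 1 to 4, at percentiles 77.0 to 88.9. No E1 library had a peak there. That at 37189783 to 37190305 of chromosome 3 scored 170.5, 226, 159 and 165, and that at 114640612 to 114641176 of chromosome 14 scored 212, 376, 204 and 145. Both were present in 2 E4 libraries. At 118454913 to 118455483 of chromosome 2 the scores were 153, 263, 155 and 150.2. At 96450455 to 96451292 of chromosome 16 they were 157, 287, 172 and 129.6. Each had a peak in 1 E4 library. E4 replicate 1 held 70.8% of all lost regions, and E4 replicates 2 to 4 held 11.7%, 6.67% and 11.1%. Regions found in 4 of the 8 libraries but neither gained nor lost had shares of 84.9%, 16.04%, 6.59% and 12.6% in E4 replicates 1 to 4. The share of lost regions was thus lower in E4 replicates 1, 2 and 4 and nearly equal in replicate 3. These shares were not tested. With a coverage minimum of 50% of each region, the named lost regions on chromosomes 14 and 16 counted as present in 3 E0 libraries. Over all gained regions the median percentile was 61.0, 61.4, 58.7 and 56.1 in E1 replicates 1 to 4, and over all lost regions it was 50.4, 56.6, 38.1 and 41.1 in E0 replicates 1 to 4. These percentiles belong to lists of different length and describe each list alone.

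Most gained regions stood alone, 1822 (32.3%) had another gained region within 50 kb, and long runs were few. With gained regions at most 50 kb apart joined, 3821 of the 5643 (67.7%) had no other gained region within that distance, and 10 runs held 5 or more. Of the 315 lost regions 307 stood alone. The 2 classes differ in number, and their spacing was not compared by a test. The longest run of gained regions, with 8 in 169 kb, lay on chromosome 3 from 136396089 to 136565412. The E1 lists had 18, 17, 16 and 15 peaks in this interval and the E0 lists 3, 7, 2 and 0, where at least 8 peaks in each E1 list follow from the choice of the run. None of its 37 regions was found in all 8 libraries. Next came 7 gained regions in 98.3 kb of chromosome 8, from 24835020 to 24933362, with 8 to 12 peaks in each E1 list and 1 to 3 in each E0 list. The only region of that run found in all 8 libraries rose in rank at E1 by the limma test given for shared regions. On chromosome 6, 6 gained regions lay in 85.7 kb from 137445964 to 137531680, where E0 replicates 1 and 4 had 1 peak each, E0 replicates 2 and 3 had none and the E1 lists had 6 to 8. A compact run on chromosome 14, from 106177233 to 106205022, held 5 gained regions in 27.8 kb, 4 of them kept with lists of equal length. The fifth run named, on chromosome 1 from 145989711 to 146054203, held 5 gained regions among 15 regions, 7 of which had a peak in E0. With lists of equal length fewer regions of the other runs were kept, 1 of 8 on chromosome 3, 1 of 7 on chromosome 8, 3 of 6 on chromosome 6 and 1 of 5 on chromosome 1.

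By chromosome, gained regions made up between 23.9% of the regions found in 4 of the 8 libraries, on chromosome 19, and 46.6%, on chromosome 3, with a median of 39.6%. The X chromosome stood at 45.5%. Lost regions made up 1.08% to 3.52%, and no chromosome had more lost than gained regions. The distance to the nearest region found in all 8 libraries was alike for gained and lost regions, with a median of 36.0 and 33.6 kb, and it was 40.6 kb for regions that 4 libraries of mixed groups held. Their median widths were 515, 499 and 468 bp. These shares and distances were not tested, since regions are not replicates.

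A second measure used the regions in which every library had a peak, which presence cannot separate. These 17581 regions, 11.6% of all, had a median merged width of 1018 bp. In each library they were ranked by score among themselves, so that every ranking has the same length, and the normal scores of the ranks were compared by limma, a linear model that moderates the variance across regions. At E1, 765 of the 17581 shared regions (4.35%) rose in rank and 300 (1.71%) fell (Benjamini-Hochberg adjusted p under 0.05 over all shared regions). In 716 of the 765 and 280 of the 300, the 4 E1 values did not overlap the 4 E0 values. Over all 17581 shared regions, called or not, the groups did not overlap in 1238 higher at E1 (7.04%) and 988 lower at E1 (5.62%), which is a more even split than that of the calls. The regions that rose had median percentiles of 20.4, 21.3, 23.5 and 22.5 in E0 replicates 1 to 4 and of 71.1, 73.5, 79.2 and 79.6 in E1 replicates 1 to 4. Their median difference was 43.6 percentile points, where the median of all shared regions was -1.09. The regions that fell had median percentiles of 66.0, 65.2, 70.4 and 68.6 in E0 and of 21.1, 20.1, 19.5 and 19.5 in E1.

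The fit with the replicate number as a block called 1194 regions as risen (6.79%) and 726 as fallen (4.13%), among them all 765 and all 300. With lists of equal length, 519 of 12455 regions rose (4.17%) and 172 fell (1.38%). In replicates 1 and 2 alone 1799 of 34219 regions rose (5.26%) and 843 fell (2.46%), and in replicates 3 and 4 alone 448 of 18951 rose (2.36%) and 101 fell (0.533%). Among the 17581 regions tested in both pairs, 262 rose in both, which is 37.5% of those called in the first pair and 63.6% of those called in the second. For fallen regions 36 were called in both, 6.83% and 38.3%. No region was called in opposite directions.

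**Figure D3:**
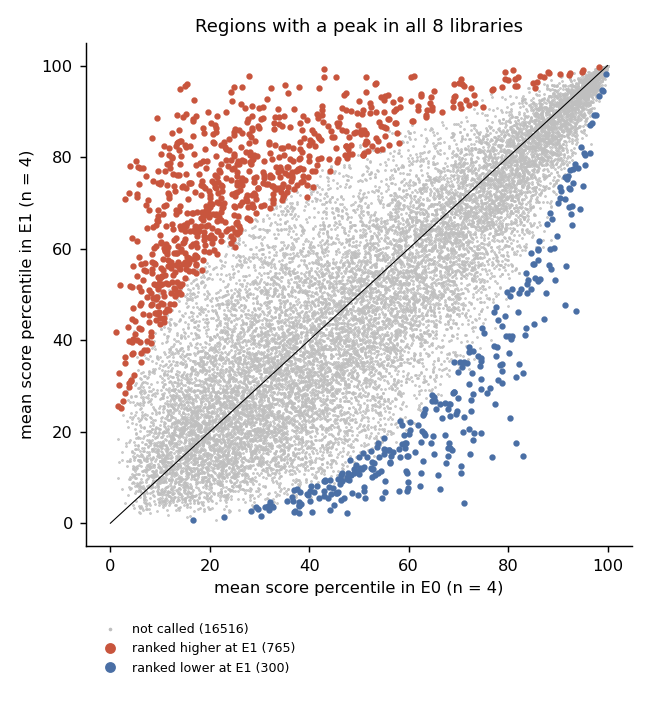
Mean percentile of the score among the 17581 regions with a peak in all 8 libraries, in E0 (x axis) and in E1 (y axis), each the mean of 4 libraries. Each point is a region, coloured points passed the limma test (765 higher, 300 lower at E1), and the line marks equal rank.

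Among the regions that rose, those with the largest difference in mean percentile moved from a mean percentile of 9.43 to 15.4 in E0 to one of 88.6 to 95.9 in E1. The first, named higher 1 in the plot by library, lay on chromosome 13 from 82887416 to 82889041. Its percentiles were 13.2, 5.52, 15.4 and 22.1 in E0 replicates 1 to 4 and 97.6, 92.9, 92.4 and 96.2 in E1 replicates 1 to 4. The difference in normal score was 2.79 (SE 0.260, limma adjusted p = 8.62e-06). Its score was 82.5 to 134 in the E0 lists and 500.3 to 954 in the E1 lists. On chromosome 13, too, lay higher 2, from 17069354 to 17070416. It had percentiles of 19.99, 22.7, 9.21 and 7.93 in E0 and 93.7, 93.3, 98.1 and 96.9 in E1, a difference of 2.83 (SE 0.256, limma adjusted p = 8.36e-06). On the same chromosome, higher 3, from 111423423 to 111424757, had 0.720, 18.9, 39.3 and 2.72 in E0 and 96.5, 97.6, 95.1 and 94.5 in E1 (limma adjusted p = 9.52e-05). Its E0 values were spread more widely than those of the others, and E0 replicate 3 was the highest. The region higher 4 lay on chromosome 10 from 21321043 to 21322306, with 2.47 to 24.5 in E0 and 77.3 to 94.0 in E1. The last, higher 5, lay on chromosome 14 from 106073789 to 106075590, with 3.14 to 20.04 in E0 and 78.1 to 94.8 in E1 (limma adjusted p = 9.76e-05 for both). It lay on the same chromosome as the compact run of gained regions, at lower coordinates. Each of the 5 had a peak in 3 or 4 E4 libraries. All 4 E4 libraries had a peak in 53.9% of the regions that rose and in 51.2% of the shared regions not called.

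The regions that fell moved by less. The largest difference, lower 1, was on chromosome 14 from 86749868 to 86750959, with percentiles of 79.8, 85.7, 88.1 and 78.1 in E0 and 17.8, 8.21, 15.2 and 17.3 in E1 (normal score difference -2.04, SE 0.269, limma adjusted p = 0.000192). On chromosome 6, the region lower 2 from 4367015 to 4368179 had 60.3, 56.7, 82.7 and 85.0 in E0 and 7.85, 3.56, 2.51 and 4.09 in E1 (difference -2.33, SE 0.334, limma adjusted p = 0.000327). These regions were chosen among those without overlap of the groups. The region lower 3 on chromosome 15, from 59785544 to 59786636, had 73.8 to 88.0 in E0 and 10.8 to 26.3 in E1. The region lower 4 on chromosome 1, from 57567205 to 57568227, had 66.0 to 87.5 in E0 and 3.72 to 30.02 in E1. On chromosome 3, lower 5, from 109584876 to 109586685, had 49.4 to 83.3 in E0 and 1.15 to 19.6 in E1, with E0 replicate 3 the lowest of its group. All 5 had a peak in at least 3 E4 libraries, and 39.7% of all regions that fell had a peak in all 4. The 10 regions kept their call under every alternative in which they could be tested. With lists of equal length 6 of the 10 could not be tested (higher 3 and 4, lower 1, 2, 4 and 5), since a library no longer held them, and with a coverage minimum of 50% none could.

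**Figure D4:**
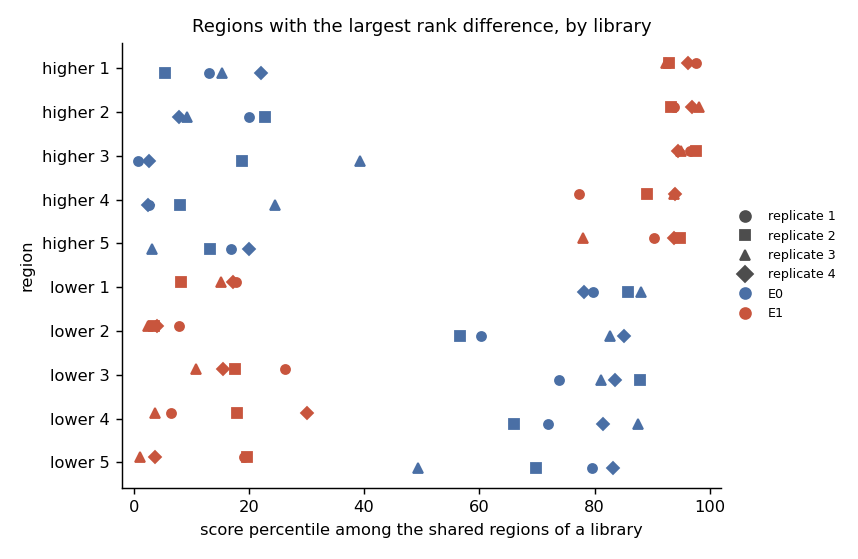
Percentile of the score among shared regions (x axis) in each of the 8 libraries, for the 5 regions that rose most and the 5 that fell most in rank at E1 (y axis). Colour gives the group and the marker the replicate number; the regions were chosen among those called and without overlap of the groups, so their separation is given by the choice.

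The share of shared regions that rose differed by width class. Of 804 regions up to 500 bp wide, 2 rose and 2 fell (0.249% each). Of 7751 regions over 500 and up to 1000 bp wide, 6.40% rose and 1.86% fell. Of 7549 regions over 1000 and up to 2000 bp wide, 3.31% rose and 1.71% fell, and of the 1477 wider than 2000 bp, 1.15% rose and 1.69% fell. The widest class was thus the one in which fewer regions rose than fell, 17 against 25. It also held the highest-ranked regions, with a median mean percentile of 73.6 in E0, against 34.7 in the class of over 500 and up to 1000 bp. The part of starting rank in these shares was not tested. Chromosome 19 had 3 risen and 11 fallen regions among 353, and on each of the other chromosomes the risen were more numerous, with the X chromosome nearly even at 10 and 9. Within 50 kb of a gained region lay 35.6% of the regions that rose, 29.3% of those that fell and 24.8% of the shared regions not called. These splits were not tested.

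Peak width was the third measure. On the log2 scale of the bp covered by peaks in a shared region, with the median of each library subtracted, 128 regions were wider (0.728%) and 34 narrower (0.193%) at E1 by limma (adjusted p under 0.05). Without subtracting that median 3 regions were wider (0.0171%) and 0 narrower by limma, with 712 wider and 155 narrower at an unadjusted p under 0.05. Of the 128 wider regions 74 had also risen in rank, and 15 of the 34 narrower ones had fallen. None was wider and fallen, or narrower and risen.

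The largest change in width was on chromosome 15, from 74497730 to 74503529. Peaks covered 507, 890, 446 and 491 bp of this region in E0 replicates 1 to 4 and 5725, 5800, 5257 and 4405 bp in E1 replicates 1 to 4. A short peak in each E0 library thus became a stretch of several kb in each E1 library, as 1 peak in E1 replicates 1 and 2 and 2 peaks in replicates 3 and 4. The difference was 3.14 on the log2 scale (SE 0.188, limma adjusted p = 4.08e-08). It passed the test without subtracting the library median (3.23, adjusted p = 0.000215), in replicates 1 and 2 alone (3.05, adjusted p = 0.00422) and in replicates 3 and 4 alone (3.19, adjusted p = 0.000349). The highest score in the region did not rise with the width. Its scores were 213, 345, 220.1 and 178 in E0 and 175, 165, 197 and 169 in E1, and its rank difference was -0.50 (SE 0.321, limma adjusted p = 0.439). In the E4 lists, peaks covered 4051, 441, 518 and 760 bp of it in replicates 1 to 4.

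The widest gained region resembled it in extent. It lay on chromosome 13 from 111188658 to 111193955, and a single peak in each E1 library covered 4843, 3763, 3111 and 2378 bp of it in replicates 1 to 4. No E0 library and no E4 library had a peak there. Its scores were 222, 294, 382.5 and 490.2. With a coverage minimum of 50% of the region it was present in 3 E1 libraries and no longer met the criterion. The nearest region found in all 8 libraries was 0.990 kb away. These were the only regions of the 152035 with at least 2000 bp of peak in every E1 library and under 1000 bp in every E0 library, and none met the reverse rule. That rule was chosen after the values were seen. At least 2000 bp were covered in all 4 E1 libraries in 55 regions and in all 4 E0 libraries in 25, 15 of them in all 8. In single libraries the number of such regions ran from 42 to 926 in E0 and from 90 to 1008 in E1, highest in replicates 1 and 2.

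Other shared regions widened to a smaller extent. The region on chromosome 13 that led the ranks was also the second by width, with 309, 383, 347 and 326 bp in E0 and 1545, 1552, 1298 and 1161 bp in E1 (log2 difference 1.92, SE 0.237, limma adjusted p = 0.00116). In replicates 3 and 4 alone its difference was 1.69 (limma adjusted p = 0.141). On chromosome 16, from 92398739 to 92400858, peaks covered 272, 460, 358 and 315 bp in E0 and 1978, 2089, 1031 and 861 bp in E1 (log2 difference 1.91, SE 0.251, limma adjusted p = 0.00147). The E1 values of this region lay higher in replicates 1 and 2 than in replicates 3 and 4, and all lay above E0. Its call was lost in limma without subtracting the library median (2.01, adjusted p = 0.162) and in replicates 3 and 4 alone (1.31, adjusted p = 0.170).

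The narrower regions rested on smaller differences. The first lay on chromosome 13 from 105183546 to 105184421, with 574, 876, 488 and 610.0 bp in E0 and 228, 377, 200 and 173 bp in E1 (log2 difference -1.51, SE 0.232, limma adjusted p = 0.00493). On chromosome 8, from 56204764 to 56209104, peaks covered 2677, 3502, 2753 and 4329 bp in E0 and 2065, 869, 1351 and 974 bp in E1 (limma adjusted p = 0.0180). The third, on chromosome 5 from 45689927 to 45690824, had 530.0 to 898 bp in E0 and 212 to 328 bp in E1 (limma adjusted p = 0.0126). The groups did not overlap in any of the 3, and none of them passed limma without subtracting the library median (adjusted p from 0.259 to 0.277). In limma fits within replicate pairs, the regions on chromosomes 13 and 5 passed in neither pair (adjusted p from 0.0810 to 0.230), and that on chromosome 8 passed in replicates 3 and 4 (0.0311) and not in replicates 1 and 2 (0.180). The region on chromosome 8 was also lost without E0 replicate 4 (limma adjusted p = 0.0539). The widest lost region, on chromosome 14 from 65213531 to 65215293, had 1538, 1763, 560.0 and 753 bp of peak in E0, with low scores of 56.7 to 87.3, so that it was absent from all lists at a score minimum of 100.

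**Figure D5:**
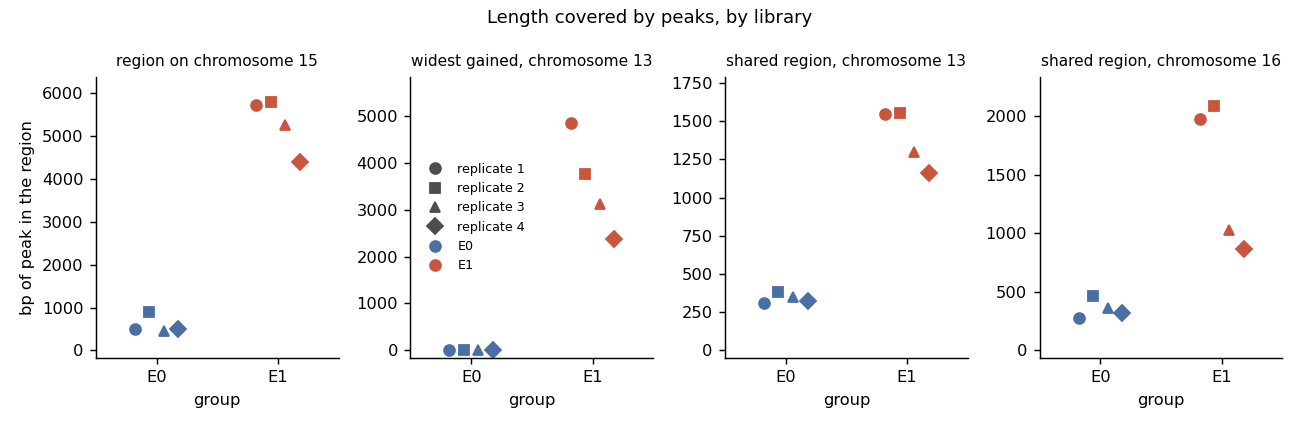
Length covered by peaks in bp (y axes) in each E0 and E1 library (x axes) for the region on chromosome 15 with the largest change in width, the widest gained region on chromosome 13, and the shared regions on chromosomes 13 and 16 that followed by width. Colour gives the group and the marker the replicate number; in each panel the 4 E1 libraries lie above the 4 E0 libraries.

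Similarity of the libraries was compared last. Across the 17581 shared regions, Spearman's rho of the scores ran from 0.727 to 0.872 among E0 libraries, from 0.686 to 0.899 among E1 libraries and from 0.576 to 0.766 between groups, where the pairs share regions and are given as a description. Libraries of the same replicate pair were closer on average. Between groups, the mean rho was 0.692 within a replicate pair and 0.614 across pairs. With lists of equal length, the Jaccard index, the bp shared by 2 peak lists over the bp in either, had a mean of 0.424 ± 0.0678 among E0 libraries, 0.459 ± 0.0743 among E1 libraries (SD, 6 pairs each) and 0.361 between groups (SD 0.0526, 16 pairs). The difference of 0.0800 between pairs within and between groups had the smallest p the test allows (exact one-sided permutation test, p = 0.0286, adjusted p = 0.143 over 5 comparisons). With lists as deposited it was 0.0686 (exact p = 0.0571, adjusted p = 0.229).

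By general knowledge, the publication described accessibility 1 h after stimulation as changed at many sites and mostly by opening. The counts of gained and lost regions stand beside that account with the limits above. The lists give calls and scores without reads, and the share of gained regions among gained and lost ones depended on list length. Risen and fallen shared regions were called on ranks within a fixed set, where a rise of some regions lowers others. Their counts thus cannot show whether accessibility opened or closed on the whole. With lists of equal length, regions with a peak in more E0 than E1 libraries outnumbered those in the opposite case. The study's statements on genes, promoters and sequence motifs were not analysed here.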

How the data were processed

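One peak list per library was used, each from a separate mouse per the labels. The submitters' processing notes name Bowtie2 and mm9, and peak names carry the MACS prefix, per the file contents. The score per peak is the authors' value as deposited. No source used here gives its scale, and the lowest in a list was 50.0 or 50.01, so it was used only to rank and filter. Caller version, control, threshold, read shift, duplicate handling and blacklists remain not given in the sources used here, and each could change the length of a list. Peaks on chromosome Y were left out. Peaks of the 8 lists were merged in Python 3.11.15, and bedtools 2.31.1 gave the same 152035 regions.

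Shared regions were compared with limma 3.58.1 (R 4.3.3, eBayes with trend, threshold 0.05), on normal scores of the score's rank or on log2 bp of peak. The procedures were checked on simulated data. For limma, the simulated libraries varied independently and with the same spread in every region, so the check does not cover the likeness within replicate pairs. Library values were compared by exact permutation over 70 assignments (35 splits for the Jaccard index). Same-numbered E0 and E1 libraries deviated together from their group means (correlations 0.191, 0.333, 0.170 and 0.190 for replicates 1 to 4 on the rank scale). This pairing comes from the data alone, since no label explains the numbers, and libraries with other numbers of the same replicate pair correlated as well (0.157 to 0.288).

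Named regions followed a rule: the 5 gained and 5 lost regions with the highest minimum percentile in the lists holding them, the 5 shared regions that rose and fell most in mean percentile among those called and not overlapping, the 3 most widened and narrowed, the 5 longest runs, and the widest gained and lost region. Members, rules and lists were chosen with earlier results of these data known. Alternatives changed list length, score minimum (100), coverage of the region (50%), merging distance (100 bp), the set of lists merged, scale, variance model, centring, block and each library in turn. The split into replicates 1 and 2 and replicates 3 and 4 was added after seeing the data. The available gene and promoter tables are of GRCm38, another build, and were not used.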

Additional observations from a re-analysis of the deposited data

Results flagged for a closer look

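In 4 of 64 groups of 4 libraries tested, 1 library stood apart by Dixon's ratio at its 95% level, a share that chance alone gives to about 1 group in 20. The first region by rise in rank, on chromosome 13 from 82887416 to 82889041, lay at percentile 40.3 of the list of E0 replicate 3, below the other E0 libraries. The same library and value were met again when that region was taken as the second by width. The region lower 5, on chromosome 3 from 109584876 to 109586685, lay at percentile 73.9 of the same E0 library, below the others. The narrower region on chromosome 8 from 56204764 to 56209104 lay at percentile 65.2 of the list of E1 replicate 4, above the other E1 libraries. E0 replicate 3 has the shortest list, and the part of list length in these values was not tested. Ranked among the shared regions, the first region lay at percentile 15.4 in E0 replicate 3. The values of E0 replicates 1, 2 and 4 were 13.2, 5.52 and 22.1, so E0 replicate 3 lay within its group. On that ranking lower 5 was still lowest in E0 replicate 3, at percentile 49.4.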

How the results depend on the processing

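Gained regions outnumbered lost regions under every setting run, but the counts moved. They were 3031 gained and 1027 lost with lists of equal length, 1698 and 118 with only the holding lists cut, and 3439 and 203 with scores of at least 100. In replicates 1 and 2 alone they were 15803 and 5462 (7350 and 5299 at equal length), and in replicates 3 and 4 alone 15108 and 1964 (6695 and 4092 at equal length), where the criterion asks for 2 libraries a group. Leaving out 1 library gave 5820 to 8573 gained, highest without E1 replicate 4, and 363 to 962 lost, highest without E0 replicate 3, followed by E0 replicate 4 (697), E1 replicate 1 (533) and E1 replicate 2 (503). Fewer libraries have to meet the criterion then.

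Shared regions that rose and fell numbered 1194 and 726 with the replicate block, 1208 and 744 with the replicate pair as a term, 1799 and 843 in replicates 1 and 2 alone, 448 and 101 in replicates 3 and 4 alone, and 54 and 12 of 2669 with peaks covering at least 50% of the region. Fallen regions were 172 with lists of equal length. Leaving out 1 library gave 456 to 1045 risen, lowest without E1 replicate 3, and 144 to 303 fallen. The fallen count was over 1.5 times smaller with any of 6 libraries left out: E0 replicate 1 (161), replicate 2 (144) and replicate 4 (174), and E1 replicate 1 (179), replicate 2 (197) and replicate 3 (182). No called region changed sign.

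Wider and narrower regions numbered 3 and 0 without centring, 85 and 19 where every library had exactly 1 peak, 195 and 76 with the replicate pair as a term, 13 and 3 in replicates 1 and 2 alone and 5 and 2 in replicates 3 and 4 alone. The block changed no other count by over 1.5 times (140 wider, 40 narrower). Leaving out 1 library gave 75 to 169 wider and 15 to 33 narrower. The wider count was over 1.5 times smaller leaving out E0 replicate 1 (83), E1 replicate 1 (76) or E1 replicate 3 (75), and the narrower count leaving out E0 replicate 1 (15), E0 replicate 2 (16) or E0 replicate 4 (20).

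For library values, without E0 replicate 2 the difference E1 minus E0 in peaks was 27837 (range over libraries left out from 14414). That in the share of peaks in regions found in all libraries kept was -16.4 percentage points (up to -7.80), and the Jaccard difference was 0.0948 (down to 0.0566). Each had an exact permutation p = 0.0286 and an adjusted p = 0.0571. The Jaccard difference was 0.0800 with lists of equal length (exact permutation p = 0.0286). The difference in the share of peaks in regions found in all 8 libraries was then -1.02 percentage points (exact permutation p = 0.371). Median width differed by 52.2 bp with lists of equal length, by -19.0 bp with scores of at least 100 and by -18.6 to 23.8 bp with a library left out, and the share of peaks wider than 1000 bp by 0.803 percentage points with lists of equal length and by -1.98 to 0.852 with a library left out, where the values as deposited were 5 bp and -0.611. The cause of these shifts was not tested. The unknown depth limits all counts of absence.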
